A study of Mus musculus with 28 samples.

Results

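Aldo-keto reductases and carbonyl reductase 1 were followed in mouse liver: Akr1b3, Akr1b7, Akr1b8, Akr1c6, Akr1c13, Akr1c19, Akr1c20, Akr1a1, Akr7a5 and Cbr1. These members are 10 listed genes, and every array probe whose RefSeq accession maps to one of them was taken. That gave 10 probes of 9 genes, out of 20660 gene symbols with a probe on the array. Akr1b3 had 2 probes, A_52_P10041 and A_55_P2174953, the probe of Akr1b8 was printed on 10 spots, and each other gene had 1 probe on 1 spot. No probe was matched to Akr1c20, which is not analysed here.

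The livers came from 6 male B6C3F1 mice, labelled as 42 days old. Phenobarbital was given to 3 of them in drinking water, at 0.05%, over about 4 weeks, and the 3 control mice drank water alone. The tissue was formalin-fixed and paraffin-embedded (FFPE), and the blocks were 16 years old, so the RNA of all groups went through fixation and long storage. cDNA made from the RNA was hybridized to 28 Agilent mouse arrays in 4 sets. The one-colour sets hold 6 arrays each, with cDNA input of 1X or 1.5X, and the two-colour sets hold 8 arrays each at the same inputs. The labels' sample numbers give the same 6 mice in every set, and each two-colour array holds 1 phenobarbital and 1 control mouse in opposite dyes, so the sets are repeat measurements of the same animals. The labels conflict in part of the two-colour 1X set. On some arrays the channels' source names give another mouse than the description, which was used here. Arrays 4 and 8 had conflicting dyes and were left out. Each set is 1 slide, so within a format the input and the slide cannot be told apart.

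Aldo-keto reductases are soluble enzymes that use NADPH to reduce aldehydes and ketones to alcohols, with substrates that range from sugars and lipid aldehydes to steroids and drugs. Cbr1 belongs to a different family, the short-chain dehydrogenases, and reduces the carbonyl groups of quinones, prostaglandins and drugs. Phenobarbital switches on the constitutive androstane receptor (CAR) of hepatocytes, a nuclear receptor that raises many drug-metabolizing enzymes, and Akr1b7 is known as a gene that CAR and related receptors can raise in liver.

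The promoters of Akr1b7 and Cbr1, which were called higher in a set each, are shown first, to place those genes in the genome. RefSeq promoter windows (build GRCm38.p6, 250 bases before to 50 bases after the gene's start) were matched for 8 of the 10 members, all but Akr1b3 and Akr1c20. The windows of Akr1b7 and Akr1b8 lie on chromosome 6, those of Akr1c6, Akr1c13 and Akr1c19 on chromosome 13, those of Akr1a1 and Akr7a5 on chromosome 4 and that of Cbr1 on chromosome 16. Capitals mark matches, on either strand, to the nuclear receptor core sites AGGTCA and AGTTCA, to any of their 4 direct repeats with a gap of 4 bases (such as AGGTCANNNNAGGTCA, the spacing that CAR is known to bind), or to the antioxidant response element TGACNNNGC. Every repeat also contains core sites, and no other motif was searched.
Akr1b7 promoter, chr6:34412112-34412411, + strand: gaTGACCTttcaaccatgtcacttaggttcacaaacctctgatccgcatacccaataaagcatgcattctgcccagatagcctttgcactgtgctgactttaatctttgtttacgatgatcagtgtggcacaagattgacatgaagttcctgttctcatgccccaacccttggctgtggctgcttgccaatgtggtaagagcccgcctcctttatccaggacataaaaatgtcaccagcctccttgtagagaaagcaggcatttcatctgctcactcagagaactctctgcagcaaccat
Cbr1 promoter, chr16:93607587-93607886, + strand: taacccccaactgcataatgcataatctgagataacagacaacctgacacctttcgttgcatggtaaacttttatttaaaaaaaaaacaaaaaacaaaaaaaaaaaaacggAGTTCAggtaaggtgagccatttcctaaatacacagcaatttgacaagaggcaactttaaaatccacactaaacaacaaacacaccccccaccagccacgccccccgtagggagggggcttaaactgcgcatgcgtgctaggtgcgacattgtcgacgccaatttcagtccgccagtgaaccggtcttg

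In the Akr1b7 window AGGTCA occurred 1 time, on the reverse strand (so that the printed strand shows its complement) from position -248, and in the Cbr1 window AGTTCA occurred 1 time, on the forward strand from position -139. AGGTCA is held by 16.3% and AGTTCA by 14% of all 32851 promoter windows, so such matches are common. None of the 8 windows held a direct repeat, which 0.0274% of all windows hold. TGACNNNGC was found in the Akr1c19 window alone of the 8, and in 12.4% of all windows. A match describes letters in this window, not a site in use.

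Each probe's signal was flagged by the scanner software as well above background or not. The share of all probes well above background was 44.2% to 51.9% per array in the one-colour 1X set and 28.1% to 38.6% in the one-colour 1.5X set. On the two-colour arrays it was 21.9% to 31.5% in Cy3 and 14.8% to 23.1% in Cy5 at 1X, against 34.4% to 42.8% in Cy3 and 2.98% to 7.43% in Cy5 at 1.5X. Cyp2b10, the classical CAR target, checks the exposure label: on the one-colour arrays its probe was well above background in all 3 phenobarbital mice and in no control mouse at either input. Over both inputs it was at least 23.8-fold higher with phenobarbital, a bound that was not itself tested. The fitted log2 difference was 6.21 (adjusted p = 1.38e-04, limma) and depends on control signals that were not above background. At two-colour 1X Cyp2b10 was called higher as well, by a smaller fitted difference of 1.72. Its bound there was 3.20-fold, against 30.8-fold at one-colour 1X. At two-colour 1.5X Cyp2b10 could not be tested, so that set has no such check. All 10 hepatocyte markers were well above background on every one-colour array, and 2 of the 10 were called lower on the two-colour 1X arrays. Their levels, as linear multiples of the array's 75th percentile, summed to 617 to 847 in control and 605 to 772 in phenobarbital mice at 1X, and to 375 to 420 and 313 to 400 at 1.5X. All 12 pancreas markers were well above background on every one-colour array as well, except for 1 marker among the 1.5X control arrays, and their levels summed to 201 to 763 in control and 135 to 759 in phenobarbital mice at 1X, and to 129 to 471 and 81.3 to 499 at 1.5X. None of the 12 pancreas markers passed the limma test over both inputs (0 at an unadjusted p under 0.05), and their median difference was -0.95 with all 12 below 0. The part of these markers' tissue in the results that follow was not tested. The arrays measure bulk liver, in which fewer cells of a type and less RNA per cell cannot be told apart.

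**Figure D1:**
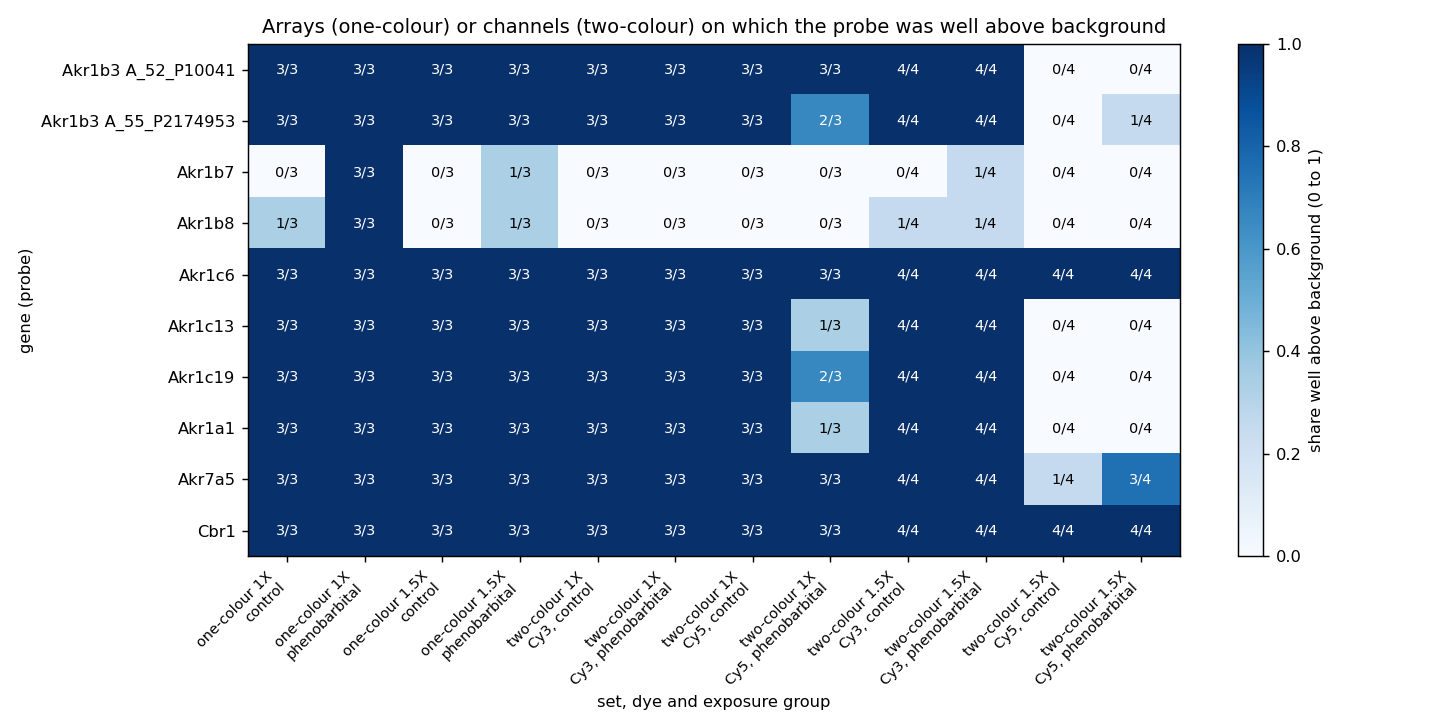
Number of arrays (one-colour) or channels (two-colour) on which each member's probe was well above background, by set, dye and exposure group, coloured by the share from 0 to 1. Akr1b7 was above background on 3 of 3 phenobarbital arrays and 0 of 3 control arrays at one-colour 1X, and Cy5 at two-colour 1.5X measured few members besides Akr1c6 and Cbr1.

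With phenobarbital, Akr1b7 was called higher on the one-colour 1X arrays (1 of 10 member probes tested, against 0.138% of all probes called). On the two-colour 1X arrays Cbr1 and 1 of both Akr1b3 probes were called higher (2 of 8, against 6.4% of all). None of the 9 measured genes was called lower in any set. Akr1b7 entered its test only through the phenobarbital group, since no control mouse was above background, and its call was lost in 11 of 13 alternatives. The call is a Benjamini-Hochberg adjusted p under 0.05 over all probes tested in the set (limma). No gene was called in more than one set. In scaled or normalized levels, though, Cbr1, Akr1b3 probe A_52_P10041 and Akr1c19 lay higher in all 3 phenobarbital mice than in any control mouse in each of 3 sets. These were 3 of the 8 member probes tested in all 3 sets, against 3.28% of all 10031 such probes, and the sets are repeat measurements of the same mice. Without scaling, some one-colour groups overlapped. At 1X the processed signal of Cbr1 was 9950 in control mouse 3 and 8562 in phenobarbital mouse 3. For Akr1b3 A_52_P10041 it was 713.2 and 460.5 in the same mice. At 1.5X that of Akr1c19 was 433.6 in control mouse 2 and 381.6 in phenobarbital mouse 2. Each probe's unscaled groups stayed apart at its other input.

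On the one-colour arrays a level is the log2 processed signal minus the 75th percentile of the array, so 0 is that percentile. Over both one-colour inputs, with the 2 arrays of a mouse averaged, 8 member probes of 7 genes were tested and none was called (3 at an unadjusted limma p under 0.05, against 13.5% of all probes), where 0.73% of all 16312 probes tested were. Their median difference was 0.14 against -0.03 for all probes. At 1X 1 of 10 probes was called (Akr1b7; 4 at an unadjusted p under 0.05, against 8.74%), with 0.138% of 24627 over all probes, and at 1.5X 0 of 8 (3 at an unadjusted limma p under 0.05, against 14.7%), with 0.245% of 16766. Among the 4 at 1X were Akr1b7 and Akr1b8, which entered the test only through the phenobarbital mice. On the two-colour 1X arrays 2 of 8 were called (Cbr1 and Akr1b3 A_52_P10041; 3 at an unadjusted p under 0.05, against 24.5%), with 6.4% of 10046. On the two-colour 1.5X arrays 0 of 2 were called and 0 had an unadjusted limma p under 0.05, with 0% of 1825 called and 35 of them at an unadjusted p under 0.05. Complete separation of both groups of 3 mice was seen more often than a call: all phenobarbital mice were higher for 3 of 8 member probes over both inputs (8.77% of all probes), 4 of 10 at 1X, Akr1b7 among them (7.4%), 3 of 8 at 1.5X (8.82%) and 3 of 8 on the two-colour 1X arrays (15.4%). Akr1b7 passed the filter because its phenobarbital arrays were above background while no control array was, so its separation adds no support. All phenobarbital mice were lower for 1 of 8 at 1.5X (11.8%).

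Cbr1 lay higher with phenobarbital in the 2 one-colour sets and in the two-colour 1X set, by a similar size, and was called in the last of them. At one-colour 1X its level was 3.26, 3.82 and 3.71 in control mice 1, 2 and 3 and 4.22, 4.53 and 4.32 in phenobarbital mice 1, 2 and 3. At 1.5X the levels were 2.38, 2.53 and 2.74 in controls and 3.29, 3.43 and 3.72 with phenobarbital. In both sets the lowest phenobarbital mouse stood above the highest control mouse. The log2 difference was 0.76 at 1X (SE 0.23, adjusted p = 0.382, limma), 0.93 at 1.5X (SE 0.19, adjusted p = 0.113) and 0.85 over both inputs (SE 0.17, 95% interval 0.45 to 1.25, adjusted p = 0.085), a fold of 1.80. None of these 3 passed the threshold, and with normexp background correction and quantile normalization the call was gained over both inputs (adjusted p = 0.0373) and at 1.5X (adjusted p = 0.0356).

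On the two-colour arrays a level is a normalized log2 channel signal, averaged over the Cy3 and the Cy5 value of a mouse. For Cbr1 at 1X it was 10.54, 10.86 and 10.74 in control mice and 11.51, 11.60 and 11.83 in phenobarbital mice. The groups were apart in each dye: Cy3 ran from 10.59 to 10.95 in controls and 11.56 to 11.90 with phenobarbital, and Cy5 from 10.49 to 10.92 and 11.46 to 11.76. The difference was 0.93 (SE 0.11, 95% interval 0.68 to 1.19, adjusted p = 0.00268), a fold of 1.91. This call held under all 12 alternatives run, with adjusted p of 1.45e-04 to 0.0194 and differences of 0.84 to 1.01.

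Akr1b3 is aldose reductase, the enzyme that turns glucose into sorbitol, and its 2 probes gave different answers. Probe A_52_P10041 at one-colour 1X read -0.59, 0.0033 and -0.09 in control mice and 0.31, 0.11 and 0.10 with phenobarbital. At 1.5X it read -1.08, -1.10 and -0.84 in controls and -0.44, -0.24 and -0.17 with phenobarbital. The groups did not overlap at either input, with the narrowest gap at 1X. The differences were 0.40 at 1X (adjusted p = 0.692), 0.72 at 1.5X (adjusted p = 0.151) and 0.56 over both inputs (SE 0.15, 95% interval 0.20 to 0.92, adjusted p = 0.182), and none was called.

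On the two-colour 1X arrays A_52_P10041 read 7.62, 7.51 and 7.62 in controls and 8.02, 8.07 and 8.27 with phenobarbital, and it was detected in every channel. The difference was 0.54 (SE 0.09, 95% interval 0.33 to 0.74, adjusted p = 0.0101), a fold of 1.45. The call was lost without control mouse 2 (adjusted p = 0.0515) and when mice were assigned by the channels' source names (adjusted p = 0.074). It held under the other 10 of 12 alternatives.

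The second Akr1b3 probe, A_55_P2174953, had overlapping groups in every set in which it was tested. At one-colour 1X it read -1.08, -1.41 and -1.42 in controls and -1.13, -0.87 and -0.97 with phenobarbital, and at two-colour 1X 7.27, 7.13 and 7.03 against 7.21, 7.10 and 7.09. Its differences were 0.31 at one-colour 1X, 0.07 at 1.5X, 0.19 over both inputs (95% interval -0.18 to 0.56, adjusted p = 0.658) and -0.01 at two-colour 1X (95% interval -0.20 to 0.19, adjusted p = 0.967). At two-colour 1X the intervals of the 2 probes do not meet, and no test between the probes was run. Both probes carry the same RefSeq accession, and where they bind in the transcript was not analysed here.

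**Figure D2:**
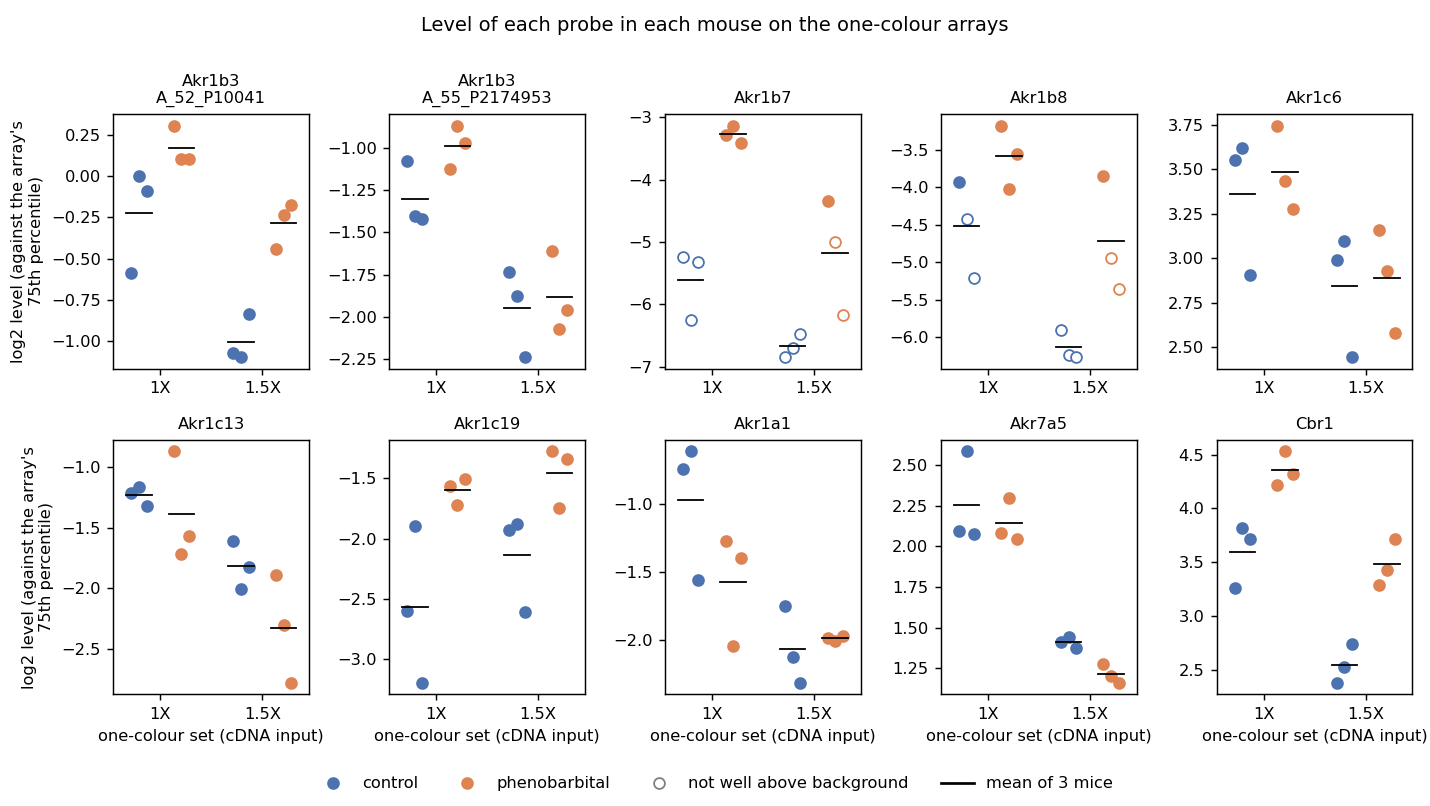
Log2 level of each member's probe in each mouse on the one-colour 1X and 1.5X arrays, against the array's 75th percentile; each panel has its own axis, filled points were well above background, open points were not, and bars are means of 3 mice. Cbr1, Akr1b3 A_52_P10041 and Akr1c19 have all phenobarbital mice above all control mice at both inputs, and Akr1b7 does so at 1X with no control mouse above background, while 5 of its 6 points at 1.5X were at background.

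Akr1b7, known as an abundant protein of the vas deferens, is an aldose reductase-like enzyme that reduces lipid aldehydes such as isocaproaldehyde from steroid synthesis. At one-colour 1X its probe was not well above background in any of the 3 control mice and well above it in all 3 phenobarbital mice. The signal was 2.91, 1.10 and 3.20 times the median of the array's negative control spots in control mice, and 8.62, 10.1 and 9.49 times in phenobarbital mice. In log2 levels these were -5.24, -6.26 and -5.32 against -3.27, -3.13 and -3.40. At this input Akr1b7 was at least 2.44-fold higher with phenobarbital. The bound takes, on each control array, the higher of the probe's own signal and the lowest signal of any probe well above background. Over both one-colour inputs the same bound was only 1.26-fold. At 1.5X there was no bound, since the phenobarbital mean of -5.17 lay below the control floor of -4.54. No test of these bounds was run. The probe passed the filter on dim probes only through the phenobarbital mice. The measured group means were -5.60 and -3.27, a fitted difference of 2.33 that depends on control signals near background.

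That call stood close to the threshold and was not stable. It was lost when any one of the 6 mice was left out, with adjusted p of 0.0572 to 0.205. It was also lost without a filter on dim probes (adjusted p = 0.191), without scaling (0.0924), with normexp and quantile normalization (0.168, where the fitted difference was 0.60) and with the row of the slide as a block (0.0892). Within the slide's row 1 (1 control and 2 phenobarbital mice) the difference of measured levels was 3.05, and within row 2 (2 control and 1 phenobarbital mouse) 1.88. Both rest on control signals that were not above background, so they are no bounds and have no test.

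At one-colour 1.5X Akr1b7 was well above background in phenobarbital mouse 1 alone and could not be tested. Levels there were -6.85, -6.71 and -6.47 in controls and -4.35, -4.99 and -6.17 with phenobarbital. Against the negative control spots the signal of phenobarbital mice was 7.45, 2.75 and 1.03 times their median, and that of controls 1.03, 1.01 and 1.07 times. Phenobarbital mouse 3 was thus at the level of the controls, and values at background have no order. Over both inputs 0 of 6 control arrays and 4 of 6 phenobarbital arrays were well above background. On the two-colour arrays it was above background in 0 of 12 channels at 1X and in 1 of 16 at 1.5X, a phenobarbital mouse in Cy3, so a difference was not detectable there.

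Akr1b8, a close relative of Akr1b7 known as a fibroblast growth factor-regulated protein, followed a like pattern of detection without a call. At one-colour 1X it was well above background in 1 of 3 control and 3 of 3 phenobarbital mice, with levels of -3.93, -4.43 and -5.21 against -3.18, -4.02 and -3.56. Control mouse 1 lay above phenobarbital mouse 2, so the groups overlapped. The difference was 0.94 (SE 0.36, 95% interval 0.10 to 1.78, adjusted p = 0.518). This probe, too, passed the filter on dim probes only through the phenobarbital mice. The difference and its interval depend on control mice 2 and 3, which were not well above background. At 1.5X phenobarbital mouse 1 alone was above background, at -3.85, the other phenobarbital mice read -4.95 and -5.37 and the controls -5.91, -6.24 and -6.27. Its 10 spots gave a direct view of spot noise near background: their SD within an array had a median of 0.268 (range 0.221 to 0.324) at 1X and 0.472 (0.0913 to 0.543) at 1.5X, on the log2 scale. On the two-colour arrays Akr1b8 was above background in 0 of 12 channels at 1X and 2 of 16 at 1.5X, 1 from each group. Whether the Akr1b7 and Akr1b8 probes also bind each other's transcript was not tested.

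The Akr1c genes encode hydroxysteroid dehydrogenases that act on steroid hormones and bile acid precursors, and none of the 3 measured here was called. Akr1c19 came closest. It read -2.60, -1.90 and -3.20 in controls and -1.56, -1.72 and -1.51 with phenobarbital at one-colour 1X, and -1.93, -1.88 and -2.61 against -1.28, -1.74 and -1.34 at 1.5X. All phenobarbital mice were higher at both inputs, and the control mice spread more widely than the phenobarbital mice at each. The differences were 0.97 at 1X (adjusted p = 0.458), 0.69 at 1.5X (adjusted p = 0.296) and 0.83 over both inputs (SE 0.26, 95% interval 0.21 to 1.44, adjusted p = 0.237).

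At two-colour 1X Akr1c19 read 6.82, 6.77 and 6.63 in controls and 6.97, 7.14 and 7.05 with phenobarbital, again with no overlap. The difference of 0.31 (SE 0.08, 95% interval 0.12 to 0.50) had an adjusted p of 0.0673. That was the smaller estimate of both formats, and the test of the difference between two-colour and one-colour at 1X gave -0.66 (limma, unadjusted p = 0.0472, adjusted p = 0.997), which was not called. The formats also differ in slide and in processing, so these cannot be told apart here. Over the 12 alternatives run, the two-colour 1X difference of Akr1c19 ranged from 0.26 to 0.64.

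Akr1c6, the mouse liver enzyme that interconverts androstenedione and testosterone, was bright in all sets and did not differ beyond its spread. At one-colour 1X it read 3.56, 3.62 and 2.90 in controls and 3.75, 3.43 and 3.28 with phenobarbital. Its differences were 0.13 and 0.05 at one-colour 1X and 1.5X, 0.03 at two-colour 1X (95% interval -0.31 to 0.36) and -0.01 at two-colour 1.5X (95% interval -0.70 to 0.69). Control mouse 3 was the lowest of the control mice in all 4 sets. Akr1c13 read -1.21, -1.16 and -1.32 in controls and -0.87, -1.71 and -1.57 with phenobarbital at 1X, and -1.61, -2.01 and -1.83 against -1.89, -2.30 and -2.78 at 1.5X. Its groups overlapped in each, and the difference over both inputs was -0.33 (95% interval -0.85 to 0.19, adjusted p = 0.57), against -0.05 on the two-colour 1X arrays.

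Akr1a1, the aldehyde reductase that also makes gulonate for vitamin C synthesis, changed sign between inputs. At one-colour 1X it read -0.74, -0.61 and -1.56 in controls and -1.27, -2.05 and -1.40 with phenobarbital, a difference of -0.60 (95% interval -1.35 to 0.15, adjusted p = 0.67). At 1.5X it read -1.75, -2.13 and -2.32 against -1.99, -2.01 and -1.97, a difference of 0.08. The groups overlapped at both inputs, and at two-colour 1X, where it read 7.04, 6.90 and 6.97 against 6.91, 7.07 and 6.95, the difference was 0.0055. The difference between inputs was 0.68 (limma, unadjusted p = 0.0468, adjusted p = 0.844) and was not called.

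Akr7a5, which reduces succinic semialdehyde and aflatoxin dialdehyde, had differences below 0 in the 3 sets where it was tested, with no call. At 1.5X all phenobarbital mice (1.28, 1.20 and 1.16) stood below all controls (1.41, 1.44 and 1.38), for a difference of -0.20 (95% interval -0.54 to 0.15, adjusted p = 0.568). The groups overlapped at one-colour 1X (difference -0.11) and at two-colour 1X (-0.07). In Cy3 alone at two-colour 1X every phenobarbital mouse was below every control (-0.16, limma, adjusted p = 0.577). No share of all probes apart in Cy3 is given here. In Cy5 of the same arrays the groups overlapped, at 9.62, 9.50 and 9.76 in controls against 9.86, 9.60 and 9.50. In Cy3 alone at two-colour 1.5X the groups overlapped, with a difference of 0.03 (limma, adjusted p = 0.95).

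**Figure D3:**
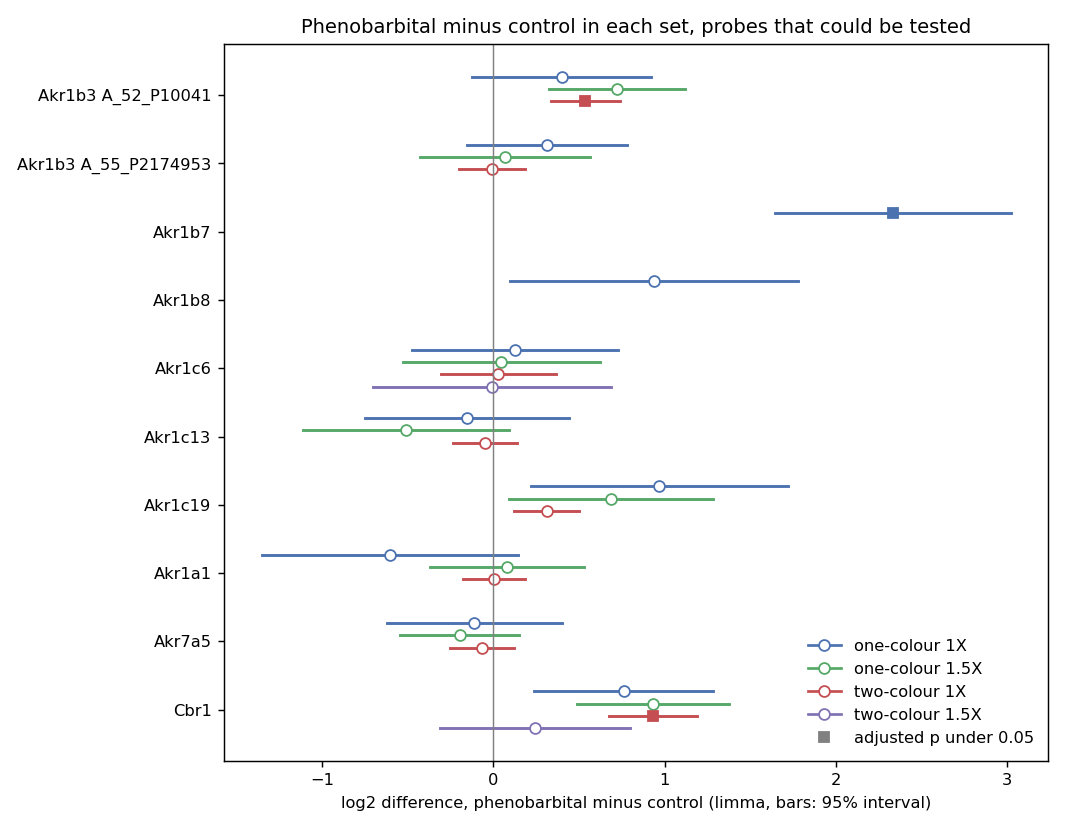
Log2 difference, phenobarbital minus control, with its 95% interval (limma) for each member's probe in each set where it could be tested; squares passed an adjusted p of 0.05. Cbr1 sits at 0.76, 0.93 and 0.93 in 3 sets and at 0.24 in the two-colour 1.5X set, Akr1c6 sits near 0 in all 4, and the Akr1b7 value rests on control arrays that were not above background.

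The exposure effect was compared between sets directly. Between 1.5X and 1X input on the one-colour arrays none of the members' differences was called (limma; 1, Akr1a1, at an unadjusted p under 0.05), with 0% of all 16439 probes called and 938 at an unadjusted p under 0.05. For Cbr1 the effect was 0.17 larger at 1.5X (95% interval -0.34 to 0.68, adjusted p = 0.963). Between the two-colour and the one-colour format at 1X none of the members was called either (1, Akr1c19, at an unadjusted p under 0.05), against 0.0199% of 10046 probes, and for Cbr1 the effect was 0.17 larger in two-colour (95% interval -0.25 to 0.59, adjusted p = 0.997). These intervals leave room for differences in either direction. Format, slide and processing cannot be told apart in the comparison of formats.

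The two-colour 1.5X arrays gave the least on these genes. Cbr1 and Akr1c6 were the 2 members well above background in all channels of a group. Cbr1 read 9.44, 10.13 and 9.82 in controls and 10.23, 9.87 and 10.02 with phenobarbital, so the groups overlapped, and the difference was 0.24 (SE 0.23, 95% interval -0.31 to 0.80, adjusted p = 0.999). In Cy3 alone 8 of the 10 probes were well above background on all arrays. Of these, the groups were apart for Cbr1 and Akr1b3 A_52_P10041 and overlapped for all the others. No share of all probes with groups apart in Cy3 is given here to set beside this, so the count cannot be weighed. With both dyes averaged, the groups of both these probes overlapped in this set. Cbr1 read 9.58, 9.95 and 9.68 in controls against 10.28, 10.13 and 10.04, and Akr1b3 A_52_P10041 7.29, 7.28 and 7.51 against 7.52, 7.68 and 7.63, the latter with barely a gap. These Cy3 differences were 0.42 (95% interval 0.16 to 0.67, adjusted p = 0.401) and 0.25 (95% interval 0.05 to 0.46, adjusted p = 0.588), and none of the 8 was called, with 0.11% of all 20088 probes. In Cy3 at 1X Cbr1 (0.92, adjusted p = 0.0136) and Akr1b3 A_52_P10041 (0.61, adjusted p = 0.0498) were the 2 called of 8, with 1.38% of 12803. In Cy5 at 1.5X the Cbr1 levels ran from 9.29 to 10.32 in controls and from 9.60 to 10.19 with phenobarbital.

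**Figure D4:**
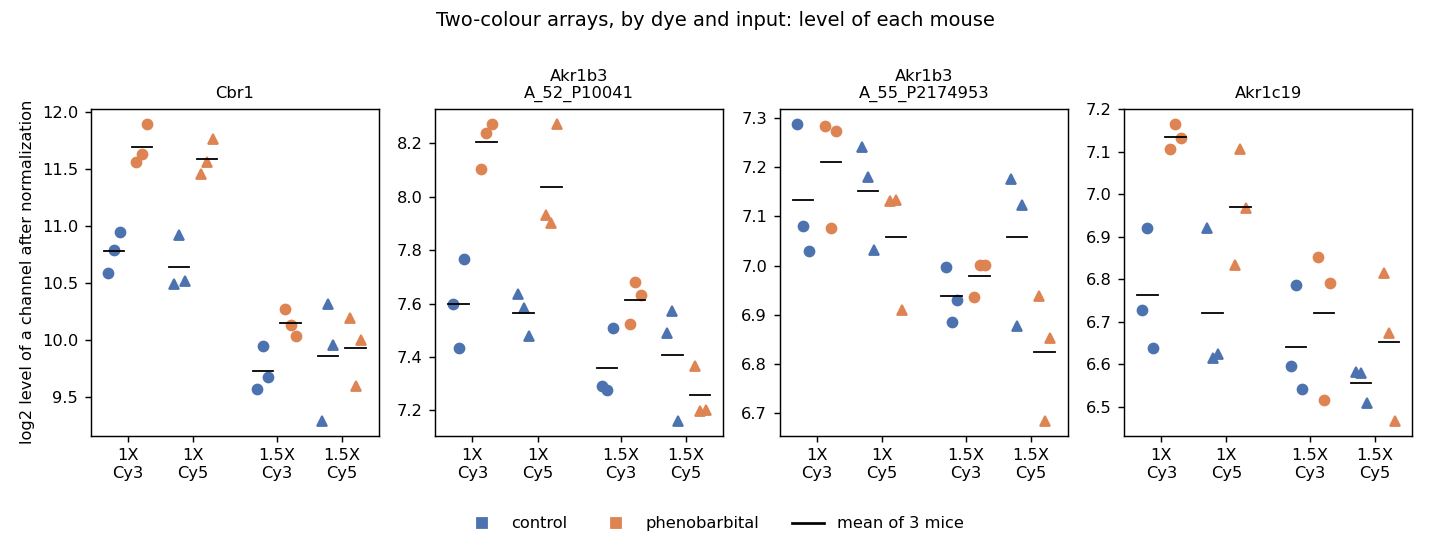
Normalized log2 channel level of Cbr1, both Akr1b3 probes and Akr1c19 in each mouse on the two-colour arrays, split by cDNA input and dye (circles Cy3, triangles Cy5; bars are means of 3 mice; each panel has its own axis). At 1X the Cbr1 groups are apart in both dyes, and at 1.5X they are apart in Cy3 and overlap in Cy5.

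The wider set of enzymes that reduce or oxidize carbonyl and alcohol groups was taken from a list of 38 other genes, 1 probe a gene. Over both one-colour inputs 26 were tested and none was called. Of these, 7 had an unadjusted limma p under 0.05 (13.5% of all probes), and the median difference was -0.20 against -0.03 for all probes. No gene of the list was called at one-colour 1X (30 tested) or 1.5X (27 tested). In each, 5 had an unadjusted limma p under 0.05, against 8.74% of all probes at 1X and 14.7% at 1.5X. On the two-colour 1X arrays 1 of 21 was called higher and 4 lower, with a median of -0.14 against -0.01. Of all 10046 probes there, 330 were called higher and 313 lower (6.4% in all). An unadjusted limma p under 0.05 was reached by 10 of the 21, against 24.5% of all probes. The gene called higher was Hsd17b2, which oxidizes estradiol and testosterone (0.45, SE 0.10, adjusted p = 0.0339). The 4 called lower were Dhrs1, a short-chain dehydrogenase (-0.47, adjusted p = 0.0117), Ptgr2, a prostaglandin reductase (-0.46, adjusted p = 0.0312), Adh7, an alcohol dehydrogenase (-0.43, adjusted p = 0.0317), and Hsd11b1, which reactivates glucocorticoids (-0.36, adjusted p = 0.048).

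The same 5 genes had the same sign over both one-colour inputs without passing the threshold there: Hsd17b2 at 0.57 (adjusted p = 0.207), Dhrs1 at -0.51 (0.285), Ptgr2 at -0.49 (0.4), Adh7 at -0.65 (0.176) and Hsd11b1 at -0.34 (0.424). The formats share the 6 mice, so this is no independent repeat. Among the other genes of the list the 3 highest over both inputs were Akr1c14 (0.63, adjusted p = 0.22), Nqo1, the quinone reductase (0.55, adjusted p = 0.366), and Ptgr1 (0.43, adjusted p = 0.665). The 3 lowest were Akr1c12 (-0.66, adjusted p = 0.435), Akr1e1 (-0.59, adjusted p = 0.423) and Sord, which oxidizes the sorbitol that aldose reductase makes (-0.40, adjusted p = 0.368). None of these 6 was called in any set.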

How the data were processed

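Liver RNA of 6 mice was measured on 28 Agilent arrays. Per the file headers, the authors extracted each array with Feature Extraction 11.0.1.1. For each spot the authors deposited the intensity as processed signal (background already removed by that software, no scaling across arrays) and as median spot and background signals. On two-colour arrays they deposited a log10 ratio of the dyes, Cy5 relative to Cy3, used here only for 2 unassigned arrays. The deposited flags (other values, 0 or 1) mark outlier spots and signals well above background. The series' deposited value table repeats these values: on the one-colour arrays it equals the processed signal, with column medians of 16.5 to 30.3, and on the two-colour arrays the log10 ratio, with the sign turned on 4 of 8 arrays in each set and medians of -0.0391 to 0.0327 (100% of spots within a thousandth part). Arrays have no count depth, and 3 mice a group limit the precision. That they are separate animals rests on the sample numbers in the labels, and p-values measure the spread between these samples.

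Probes were named by matching RefSeq accessions to a table of assembly GRCm38.p6, which named 27235 of 55681 probes. Spots flagged as outliers were dropped, which removed no member value, and replicate spots were averaged. A probe was tested where it was well above background on all arrays (or channels) of at least 1 exposure group. For one-colour levels, the 75th percentile of each array (over probes detected throughout the set) was subtracted from the log2 processed signal. Two-colour levels followed normexp (offset 50), loess (span 0.3) and Aquantile normalization of the median signals, and both dyes were averaged for each mouse. Of the two-colour 1X arrays, 6 of 8 were used: on arrays 4 and 8 the description and the channel labels give opposite dyes. Elsewhere the description set the mouse where the source names differ. Groups were compared with limma 3.58.1 (R 4.3.3), with Benjamini-Hochberg adjustment over all probes and a threshold of 0.05, and intervals are at 95%. The same code was tested on simulated data. Levels are not compared between probes or sets.

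The genes named are the members with every probe, Cyp2b10, and, of the list of other enzymes, those called in any set and the 3 highest and 3 lowest of the others. The members and lists were chosen with earlier results of these data known. Alternatives changed the filter, scaling, normalization, dyes, mouse assignment, blocks and the mice included.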

Additional observations from a re-analysis of the deposited data

How the results depend on the processing

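The members' values for phenobarbital against control kept their sign in 408 of 444 recomputed values, and the 36 that changed sign were none of Cbr1, Akr1b3 A_52_P10041, Akr1b7, Akr1b8 and Akr1c19. The count of members called was 0 over both one-colour inputs and at one-colour 1.5X, and became 1 in each (Cbr1) with normexp and quantile normalization. At one-colour 1X it was 1 (Akr1b7), and became 0 with no filter on dim probes, no scaling, normexp and quantile normalization, or the slide row as a block, and 0 to 0 with any 1 mouse left out. At two-colour 1X it was 2, 1 to 2 with a mouse left out, and 1 with mice by source names. The two-colour 1.5X count of 0 and those between sets did not change. With the replicate block at one-colour 1X it became 0 (Akr1b7 adjusted p = 0.179). By the labels the same-numbered mice are not paired animals. On some two-colour arrays they do share the array, which the fits did not model. The correlations of their deviations were 0.0488, -0.104 and 0.251 over both inputs, and 0.284, -0.0404 and 0.373 at two-colour 1X. The block took the calls over all probes from 119 to 58 over both inputs, and it changed no other count of members called.

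The calls over all probes moved more. Over both inputs 119 became 21 to 155 with a mouse left out, 28 with no filter and 222 with normexp. At one-colour 1X 34 became 6 to 22, 3 with the block, 5 with no filter, 56 with normexp and 9 with the slide row. At one-colour 1.5X 41 became 8 to 150, 3 with the block, 8 with no filter, 185 with normexp and 16 with the slide row. At two-colour 1X 643 became 264 to 770, 1000 with the block, 177 in Cy3 alone and 121 with mice by source names, and at two-colour 1.5X 0 became 22 in Cy3 alone. The split moved as well: 102 of 119 were higher over both inputs, but 56 of 90 with no scaling and 168 of 222 with normexp; 32 of 34 at 1X but 18 of 25 with no scaling; 37 of 41 at 1.5X but 141 of 185 with normexp; and 330 of 643 at two-colour 1X but 239 of 599 from processed signals. Without scaling the median of all probes was -0.24 over both inputs, -0.28 at 1X and -0.17 at 1.5X. The cause of these changes was not tested. Signal over background limits Akr1b7 and Akr1b8, and most members in Cy5 at two-colour 1.5X.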

Other observations

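The 2 two-colour 1X arrays that the labels place in no group gave ratios of Cy5 over Cy3 for the members. The labels do not settle their direction. On all other two-colour arrays the authors' value table keeps the sign where Cy5 is phenobarbital and turns it where Cy5 is control. In that table the sign of array 4 is kept and that of array 8 is turned. By this pattern the table treats Cy5 as phenobarbital on array 4 and as control on array 8. On array 4 the deposited log10 ratio, on the log2 scale, was 0.77 for Cbr1, 0.47 for Akr1b3 A_52_P10041, -0.05 for Akr1b3 A_55_P2174953, 0.54 for Akr1c19, -0.09 for Akr1c6, -0.57 for Akr1c13, 0.03 for Akr1a1 and -0.23 for Akr7a5. Cy5 was not well above background there for Akr1c13. On array 8 it was -0.68 for Cbr1, -0.62 for Akr1b3 A_52_P10041, -0.10 for Akr1b3 A_55_P2174953, -0.21 for Akr1c19, -0.75 for Akr1c6, 0.31 for Akr1c13, -0.45 for Akr1a1, 0.09 for Akr7a5 and -1.33 for Akr1b8. Cy5 was not well above background there for Akr1c19, Akr1a1 and Akr1b8. The probe of Akr1b7 was not well above background in either dye of both arrays, nor was that of Akr1b8 on array 4.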
